A study of Bos taurus with 11 samples.

Results

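SOD1 and the other antioxidant enzymes are described here, a set of 10 genes written by function around SOD1. The genes are the superoxide dismutases SOD1 and SOD2, catalase (CAT), the peroxiredoxins PRDX1, PRDX2, PRDX3, PRDX5 and PRDX6, the glutathione peroxidase GPX4 and thioredoxin (TXN). RefSeq accessions of 9 of the 10 were listed among the 8576 transcripts of the table of GATA3 KO embryos and among the 12047 of the table of CDX2 KO embryos. GPX4 was listed in neither table and is not analysed here. SOD1 leads the set because it was chosen by its log2 fold change in GATA3 KO embryos, where it was among the transcripts with the largest rises. Values of that comparison are therefore given as a description, and no p-value is given there for any of the 10 genes.

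The data are single bovine blastocysts of day 7, labelled as early blastocysts, each made into one Smart-seq2 library from polyadenylated RNA. WT control embryos (n = 3) were injected at the zygote stage with mRNA of the cytosine base editor BE3 alone. GATA3 KO embryos (n = 4) received the same mRNA with a mix of GATA3 guide RNAs, and CDX2 KO embryos (n = 4) with a mix of CDX2 guide RNAs. All 3 groups thus carried the editor, which converts C to T where a guide directs it and here was meant to create premature stop codons. The cells of one embryo may have been edited to different degrees. The same WT control embryos stand in both tables, each table was normalized on its own, and tests were made only within a table. KO embryos are named by the number of their column, which is 3 to 6 for the GATA3 KO and 2 to 5 for the CDX2 KO group. Nothing in the labels states that embryos came from separate fertilizations, so the errors measure the spread between these embryos.

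Each embryo of the GATA3 KO table had 150057 to 540775 counts in total, while in the CDX2 KO table totals were 100731 to 662962, with the lowest total in CDX2 KO embryo 3. The targeted transcript GATA3 was 71.3 to 87.6 normalized counts in WT control, against 9.85 to 13.1 in GATA3 KO embryos. CDX2 was 6.88 to 11.1 in WT control, against 1.66 to 4.66 in CDX2 KO embryos, near the floor of 3 counts below which a transcript was taken as not detectable. The paper, by contrast, saw no obvious change of either transcript in its KO embryos, and the reason for the difference was not tested. The trophectoderm keratin KRT8 had 1746 to 4318 normalized counts in WT control and 2180 to 3563 in GATA3 KO embryos of one table, and 2460 to 6698 in WT control and 718 to 4500 in CDX2 KO embryos of the other. KRT18, its partner keratin, had 1212 to 2711 in WT control against 1019 to 1494 in GATA3 KO embryos, and 1706 to 4193 against 1289 to 2526 beside CDX2 KO, with lower ranges that overlapped WT control in both. The sum of the trophectoderm markers listed was 3185 to 7394 and 3607 to 5175 in the first (7 of 8 listed), and 4476 to 11442 and 2195 to 7416 in the second (8 of 8), where its range in CDX2 KO embryos lay lower with overlap. Of 8 cumulus cell markers, the table of GATA3 KO listed 2, with a sum of 9.33 to 15.8 in WT control and of 2.58 to 26.05 in KO embryos. In the table of CDX2 KO, 7 were listed, and their sum was 28.4 to 32.1 in WT control and 54.8 to 65.5 in CDX2 KO embryos. Of these, INHA had 0 counts in WT control embryos 2 and 3 and CDX2 KO embryo 3, AMH in WT control embryo 3 and CDX2 KO embryo 5, PTX3 in WT control embryo 1 and CDX2 KO embryo 4, and HAS2 in CDX2 KO embryo 3. The part of the trophectoderm and cumulus cell markers in the results was not tested. Y-linked transcripts had 29 to 98 counts in the WT control embryos and 68 in GATA3 KO embryo 6, but at most 2 in GATA3 KO embryos 3 to 5. In the table of CDX2 KO they had 46 to 149 counts in WT control embryos, 155 in CDX2 KO embryo 5, and 0 in CDX2 KO embryos 2, 3 and 4.

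Cells that respire form superoxide, which superoxide dismutases turn into hydrogen peroxide. Catalase then splits hydrogen peroxide into water and oxygen, with no outside electron donor. The peroxiredoxins and the glutathione peroxidases reduce peroxides, with thioredoxin or glutathione as the usual donor. Cultured bovine embryos are known to be sensitive to the oxygen level of their medium, and these enzymes are commonly measured in them.

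SOD1, the copper and zinc superoxide dismutase of the cytosol, was higher in every GATA3 KO embryo than in every WT control embryo. The SOD1 transcript (NM_174615) had 46.6, 18.4 and 17.1 normalized counts in WT control embryos 1 to 3. GATA3 KO embryos 3 to 6 had 146, 118, 118 and 53.4. A normalized count is a count divided by the size factor of its embryo, and the counts behind these values were 59, 17 and 11 in WT control and 101, 275, 99 and 65 in GATA3 KO. GATA3 KO embryo 6, the lowest of its group, and WT control embryo 1, the highest of its group, were the nearest to each other. WT control embryos had a mean of 27.3 ± 16.7 (SD, n = 3) and GATA3 KO embryos one of 109 ± 39.4 (SD, n = 4), a log2 fold change of 2.02 (standard error 0.37) on log2(normalized count + 1). On this scale the changes of transcripts with low counts are understated. In a bulk sample of a whole embryo, more cells that hold a transcript and more of it per cell cannot be told apart.

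The 3 GATA3 KO embryos with 117.9 normalized counts of SOD1 or more were those with at most 2 Y-linked counts, and embryo 6, with 53.4, had Y-linked counts as all the WT control embryos did. With a covariate for Y-linked counts, a fit in which the difference rests on GATA3 KO embryo 6 alone, the log2 fold change of SOD1 was 1.09. With each embryo left out in turn, it ran from 1.77 to 2.46. The part of Y-linked status in the difference cannot be told apart from the genotype with these embryos.

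SOD2, the manganese superoxide dismutase of mitochondria, also lay higher in GATA3 KO embryos without overlap. WT control embryos 1 to 3 had 18.1, 11.9 and 14.0 normalized counts of SOD2, GATA3 KO embryos 3 to 6 had 36.2, 19.0, 33.3 and 27.9, and the difference was a log2 fold change of 0.92 (standard error 0.32). The lowest GATA3 KO embryo, 4, was close to the highest WT control embryo. Its log2 fold change was 0.90 with the Y-linked covariate. CAT, the catalase of peroxisomes, overlapped between the groups. Its values were 25.3, 10.8 and 26.4 in WT control and 26.05, 22.0, 25.01 and 32.0 in GATA3 KO embryos, and only WT control embryo 2 stood apart, on the low side. The log2 fold change of CAT was 0.41 (standard error 0.33), and without WT control embryo 2 it was 0.01.

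**Figure D1:**
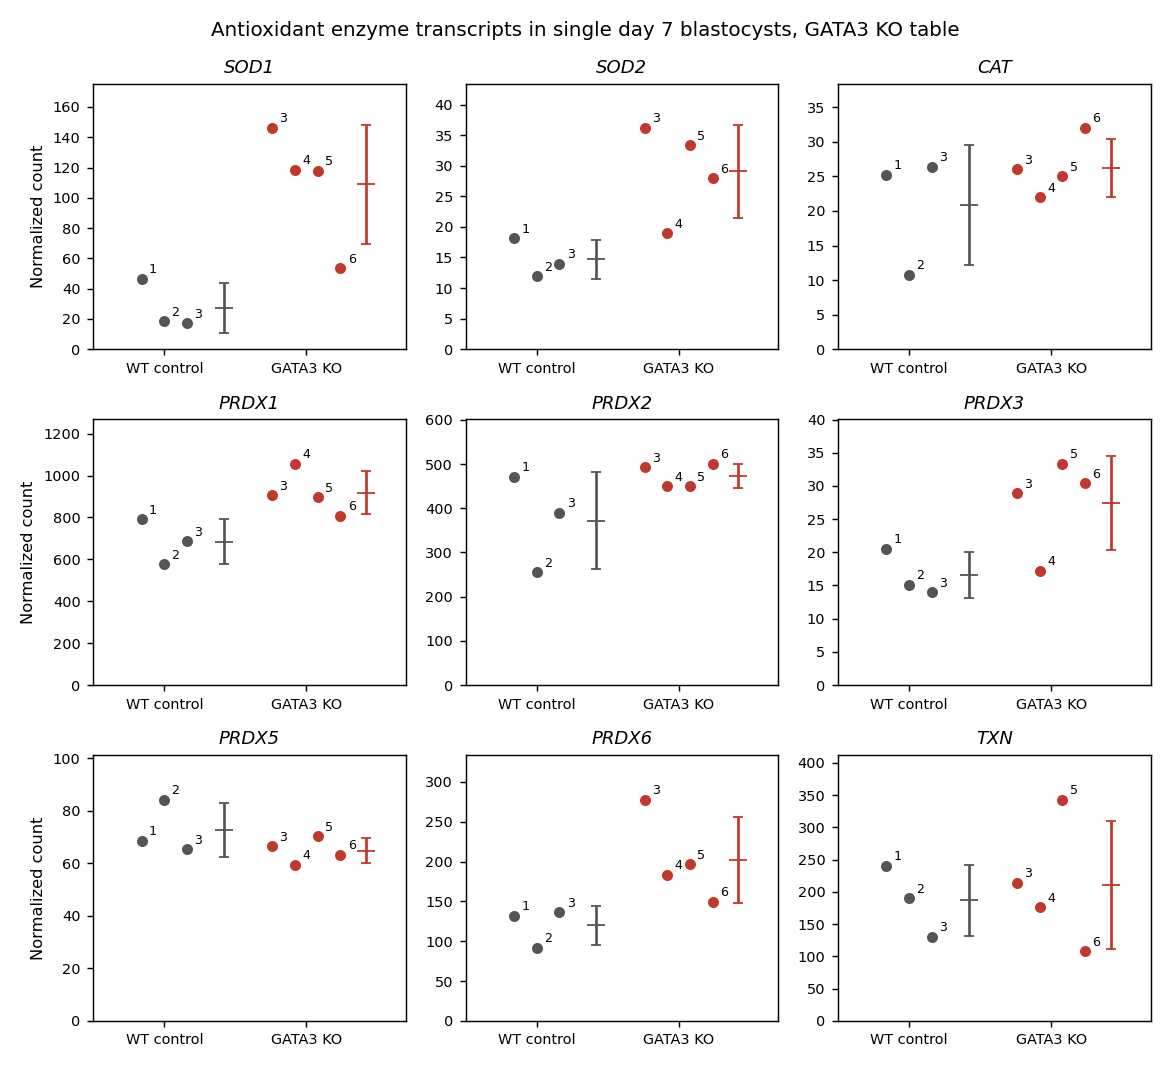
Normalized counts (y axes, linear from 0) of the 9 antioxidant enzyme transcripts in WT control (grey, n = 3) and GATA3 KO (red, n = 4) embryos of one table. Points are embryos with their numbers, and bars are the mean ± SD of the group. SOD1, SOD2, PRDX1 and PRDX6 did not overlap between the groups.

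Of the peroxiredoxins, PRDX6 and PRDX1 lay higher in every GATA3 KO embryo than in every WT control embryo. PRDX6, which also has phospholipase activity, had 132, 91.9 and 137 normalized counts in WT control embryos 1 to 3, against 278, 184, 197 and 149 for GATA3 KO embryos 3 to 6. As for SOD1, embryo 3 was the highest and embryo 6 the lowest of the GATA3 KO embryos. PRDX6 differed by a log2 fold change of 0.73 (standard error 0.26), or 0.33 with the Y-linked covariate. PRDX1, a cytosolic peroxiredoxin, had 791, 576 and 685 normalized counts in WT control and 907, 1057, 897 and 809 in GATA3 KO embryos, a log2 fold change of 0.43 (standard error 0.22). The gap between GATA3 KO embryo 6 and WT control embryo 1 was small beside the spread within either group.

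The other peroxiredoxins and thioredoxin overlapped. PRDX3, the peroxiredoxin of mitochondria, had 20.5, 15.1 and 14.0 normalized counts in WT control and 28.9, 17.2, 33.3 and 30.4 in GATA3 KO embryos, so that embryo 4 alone lay within the WT control range. Its log2 fold change was 0.68 (standard error 0.32). PRDX2, the second cytosolic peroxiredoxin, was 255 to 472 in WT control, against 450 to 501 in GATA3 KO embryos, and its log2 fold change was 0.39 (standard error 0.24), or 0.14 without WT control embryo 2. The GATA3 KO embryos were more alike than the WT control embryos for PRDX2, with coefficients of variation of 5.76% and 29.4%. PRDX5, found in mitochondria, peroxisomes and cytosol, was the 1 enzyme of the 9 with a lower mean in GATA3 KO, with 65.3 to 84.3 in WT control, against 59.5 to 70.3 in KO embryos (log2 fold change -0.16, standard error 0.24). TXN, the small protein that reduces peroxiredoxins, had 241, 190 and 131 normalized counts in WT control and 214, 176, 343 and 108 in GATA3 KO embryos. GATA3 KO embryos held both the highest and the lowest value of TXN, and its log2 fold change was 0.09 (standard error 0.32) and -0.75 with the Y-linked covariate. The sign of TXN turned on single embryos, with -0.19 without GATA3 KO embryo 5, -0.15 without WT control embryo 3 and 0.37 without GATA3 KO embryo 6.

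The threshold for a call asked for an adjusted p no larger than 0.05 together with a fold of 1.5 upward or 0.6 downward. In the comparison of GATA3 KO with WT control, 2.01% of the 4271 transcripts tested passed it (limma), and 22.6% had an unadjusted p under 0.05. SOD1 was 1 of the 9 enzymes past it, which follows from its choice on this comparison and is no test of it. As a limit of that description, SOD1 was not past the threshold without WT control embryo 2, WT control embryo 3 or GATA3 KO embryo 3, with the Y-linked covariate, or with a prior that has no trend. The 9 transcripts all had a mean of at least 10 normalized counts, the minimum for the test. SOD1, SOD2, PRDX1 and PRDX6, 4 of the 9, lay higher in GATA3 KO without overlap, against 11.9% of all transcripts tested, and 0 of the 9 lay lower without overlap, against 7.05%. The log2 fold change was above 0 for 8 of the 9, against 57.2% of all transcripts, with a median of 0.43 over the 9 and of 0.11 over all transcripts. Since the comparison chose SOD1, nothing is read from these shares.

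The comparison of CDX2 KO with WT control was not used to choose SOD1, but it has the same WT control embryos. There, 0 of the 9 enzymes passed the threshold, as did 0% of the 5719 transcripts tested (limma). An unadjusted p under 0.05 was found for 0 of the 9, against 187 transcripts or 3.27% of all. With edgeR and DESeq2 on the recovered counts, 1 and 10 of these transcripts passed it, none of them an enzyme of the set.

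SOD1 had 71.7, 24.5 and 19.5 normalized counts in WT control embryos 1 to 3, and CDX2 KO embryos 2 to 5 had 19.6, 11.7, 127 and 73.6. CDX2 KO embryos 4 and 5 lay above every WT control embryo, embryo 3 lay below them all, and embryo 2 was at the level of WT control embryo 3. The highest CDX2 KO embryo had 10.9 times the SOD1 of the lowest, and the 5 counts in embryo 3 have a 95% Poisson interval of 1.62 to 11.7 (counting error only). The log2 fold change was 0.24 (standard error 0.73, 95% interval -1.35 to 1.83, Benjamini-Hochberg adjusted p = 0.958, limma). This interval holds both a fall and a rise, and the data do not show that SOD1 was alike in the groups. It was 0.79 without CDX2 KO embryo 3, 0.80 without WT control embryo 1 and -0.32 without CDX2 KO embryo 4. It was 1.15 with the Y-linked covariate, where the difference rests on CDX2 KO embryo 5, and 0.68 with edgeR.

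SOD2 had 27.3, 15.8 and 19.5 normalized counts in WT control and 7.35, 2.33, 12.4 and 18.8 in CDX2 KO embryos 2 to 5. CDX2 KO embryos 2, 3 and 4 lay below every WT control embryo, and embryo 3 had 1 count, under the floor. On the log2 scale the fold change of SOD2 was -1.20 (standard error 0.62, 95% interval -2.53 to 0.13, adjusted p = 0.900 from limma). It was -0.71 without CDX2 KO embryo 3 and -0.11 with the Y-linked covariate. CAT had 38.7, 14.2 and 36.7 normalized counts in WT control, while CDX2 KO embryos had 18.4, 37.3, 23.2 and 36.5, and all CDX2 KO embryos lay within the WT control range. Its log2 fold change was 0.02 (95% interval -0.98 to 1.02, adjusted p = 0.995 from limma).

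**Figure D2:**
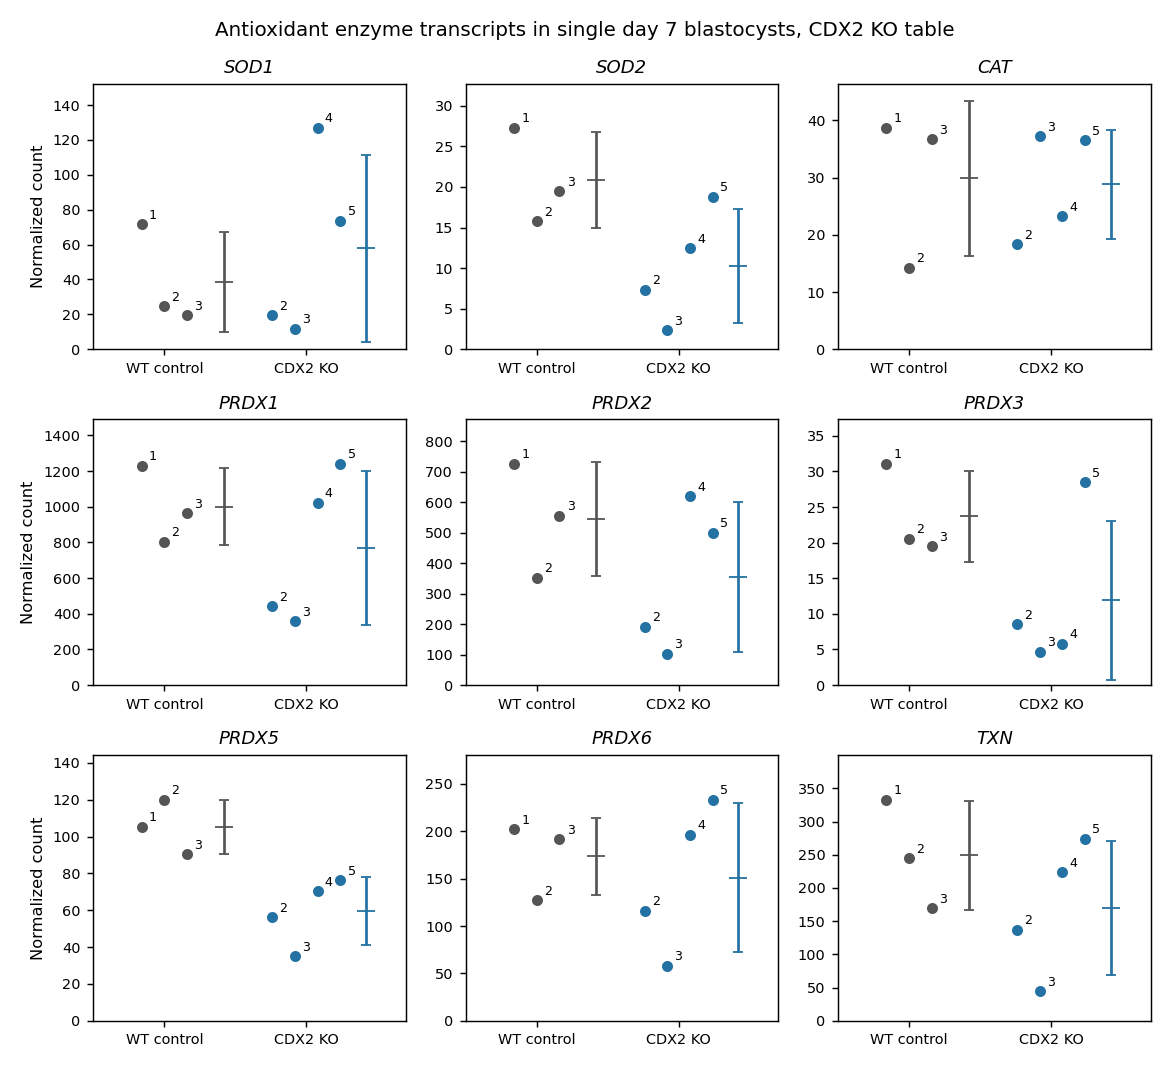
Normalized counts (y axes, linear from 0) of the 9 transcripts in WT control (grey, n = 3) and CDX2 KO (blue, n = 4) embryos of the other table. Points are embryos with their numbers, and bars are the mean ± SD. CDX2 KO embryo 3 was lowest of its group for 8 of the 9, and PRDX5 alone did not overlap.

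PRDX5 was the 1 enzyme without overlap in the table of CDX2 KO, on the lower side, where 3.36% of all transcripts tested lay lower without overlap. It had 105, 120 and 90.6 normalized counts in WT control embryos 1 to 3, against 56.4, 35.0, 70.5 and 76.2 for CDX2 KO embryos 2 to 5. Its fold change was -0.86 on the log2 scale (standard error 0.40, 95% interval -1.74 to 0.01, adjusted p = 0.900 from limma). It stayed between -0.999 and -0.63 with each embryo left out, and was -0.63 without CDX2 KO embryo 3 and -0.45 with the Y-linked covariate.

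The other mitochondrial peroxiredoxin, PRDX3, had 31.1, 20.5 and 19.5 normalized counts in WT control embryos, against 8.58, 4.66, 5.81 and 28.5 in CDX2 KO embryos 2 to 5. Embryo 5, the CDX2 KO embryo with Y-linked counts, lay within the WT control range and the other three below it, with 7, 2 and 7 counts. For PRDX3 the log2 fold change was -1.24 (standard error 0.58, 95% interval -2.50 to 0.01, adjusted p = 0.900 from limma). With the Y-linked covariate it was 0.28, a fit that rests on CDX2 KO embryo 5.

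PRDX1 had 1231, 805 and 963 normalized counts in WT control and 444, 359, 1022 and 1241 in CDX2 KO embryos 2 to 5. PRDX2 had 727, 352 and 556 in WT control and 191, 103, 621 and 500 in CDX2 KO embryos. For both, CDX2 KO embryos 2 and 3 lay below every WT control embryo, embryos 4 and 5 lay above the lowest of them, and embryo 5 lay above all of them for PRDX1. Fold changes on the log2 scale were -0.55 (95% interval -1.61 to 0.50) for PRDX1 and -0.90 (95% interval -2.17 to 0.37) for PRDX2, with an adjusted p of 0.900 from limma for each. Without CDX2 KO embryo 3 they were -0.25 and -0.42, and with the Y-linked covariate 0.33 and -0.06.

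PRDX6 was 127 to 202 normalized counts in WT control, against 58.3 to 234 in CDX2 KO embryos, with a log2 fold change of -0.35 (95% interval -1.42 to 0.71, adjusted p = 0.928 from limma). TXN was 170 to 333 in WT control, against 44.3 to 274 in CDX2 KO embryos, with a log2 fold change of -0.78 (95% interval -2.02 to 0.46, adjusted p = 0.900 from limma). Both were lowest in CDX2 KO embryo 3 and highest, among the CDX2 KO embryos, in embryo 5. Without embryo 3 their log2 fold changes were 0.039 and -0.24, and with the Y-linked covariate 0.45 and 0.19.

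CDX2 KO embryo 3 was lowest of its group for 8 of the 9 enzymes and highest for CAT, while embryo 5 was highest for 6. The sum of the 9 was 999 and 655 normalized counts in CDX2 KO embryos 2 and 3, against 2302 and 2483 in embryos 4 and 5 and 1724 to 2767 in WT control embryos. The low sums fell to the embryos with the lowest totals, of 218797 and 100731 counts, and the part of depth was not tested. The log2 fold change was above 0 for 2 of the 9, against 39.5% of all transcripts, and the median over the 9 was -0.78, against -0.15 over all transcripts. Without CDX2 KO embryo 3 the median over the 9 was -0.25, and with the Y-linked covariate 0.28.

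**Figure D3:**
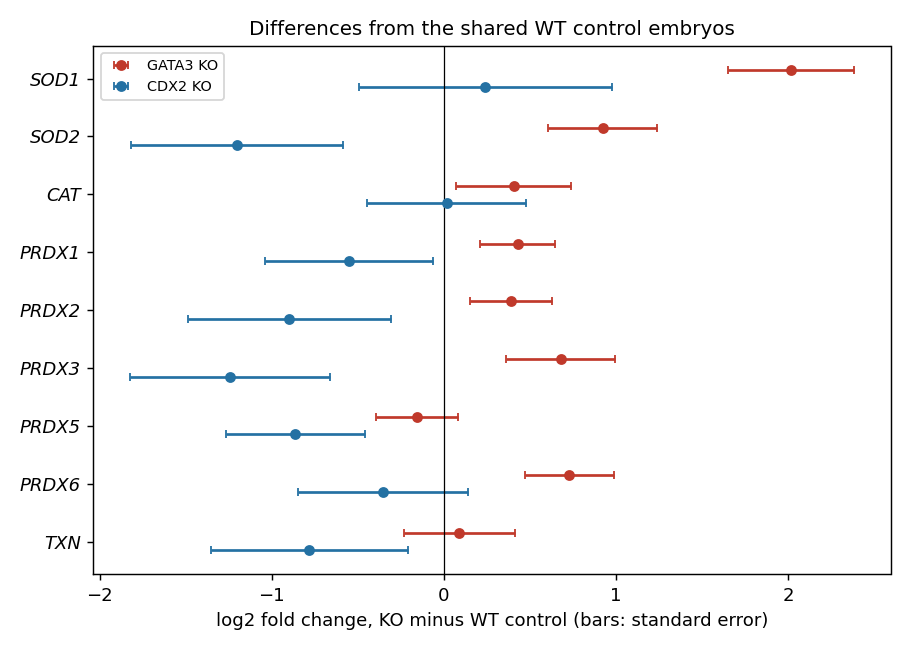
Log2 fold changes (x axis, KO minus WT control) of the 9 transcripts in GATA3 KO (red) and CDX2 KO (blue) embryos, with bars of 1 standard error. Both comparisons use the same 3 WT control embryos, and the difference between them was not tested. SOD1 stood at 2.02 and 0.24, and SOD2 at 0.92 and -1.20, while with the Y-linked covariate (not drawn) SOD1 was 1.09 and 1.15, and SOD2 0.90 and -0.11.

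To set the 3 groups side by side without the size factors, each count was also expressed per 10000 counts of the 8567 transcripts listed in both tables. The WT control embryos had 1.78 to 1.85 times as many counts of these transcripts in the table of CDX2 KO as in that of GATA3 KO. Their shares were nevertheless close, as SOD1 took 1.85, 0.82 and 0.73 of 10000 counts in WT control embryos 1 to 3 of one table and 1.91, 0.84 and 0.62 in the other. SOD1 took 6.07, 5.09, 4.81 and 2.14 of 10000 counts in GATA3 KO embryos 3 to 6, and 0.79, 0.56, 3.72 and 2.12 in CDX2 KO embryos 2 to 5. CDX2 KO embryo 5 and GATA3 KO embryo 6, the KO embryos with Y-linked counts, had nearly the same share. SOD2 took 0.81 to 1.502 of 10000 counts in GATA3 KO embryos, 0.53 to 0.73 in WT control embryos over both tables, and 0.11 to 0.54 in CDX2 KO embryos. The sum of the 9 enzymes took 71.2 to 91.2 of 10000 counts in GATA3 KO, 55.8 to 73.6 in WT control over both tables, and 31.6 to 71.4 in CDX2 KO embryos. The tables were made separately, and these levels were not tested between them.

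Ratios of counts within an embryo do not depend on its size factor. The SOD1 count was 5.88%, 3.19% and 2.49% of the PRDX1 count in WT control embryos 1 to 3. In GATA3 KO embryos 3 to 6 it was 16.1%, 11.2%, 13.1% and 6.60%. It was 4.42%, 3.25%, 12.4% and 5.93% in CDX2 KO embryos 2 to 5, whose WT control embryos in the same table had 5.82%, 3.04% and 2.02%. All GATA3 KO embryos thus lay above the WT control embryos, and the CDX2 KO embryos did so for embryos 4 and 5 alone.

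The SOD1 count per SOD2 count was 2.57, 1.55 and 1.22 in WT control embryos and 4.04, 6.25, 3.54 and 1.91 in GATA3 KO embryos 3 to 6, where embryo 6 fell within the WT control range. In the table of CDX2 KO it was 2.63, 1.55 and 1 in WT control and 2.67, 5, 10.2 and 3.91 in CDX2 KO embryos 2 to 5. All CDX2 KO embryos thus lay above every WT control embryo, embryo 2 only just (2.67 against 2.63). The value of CDX2 KO embryo 3 comes from 5 counts over 1. Both ratios were chosen after the values were seen.

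**Figure D4:**
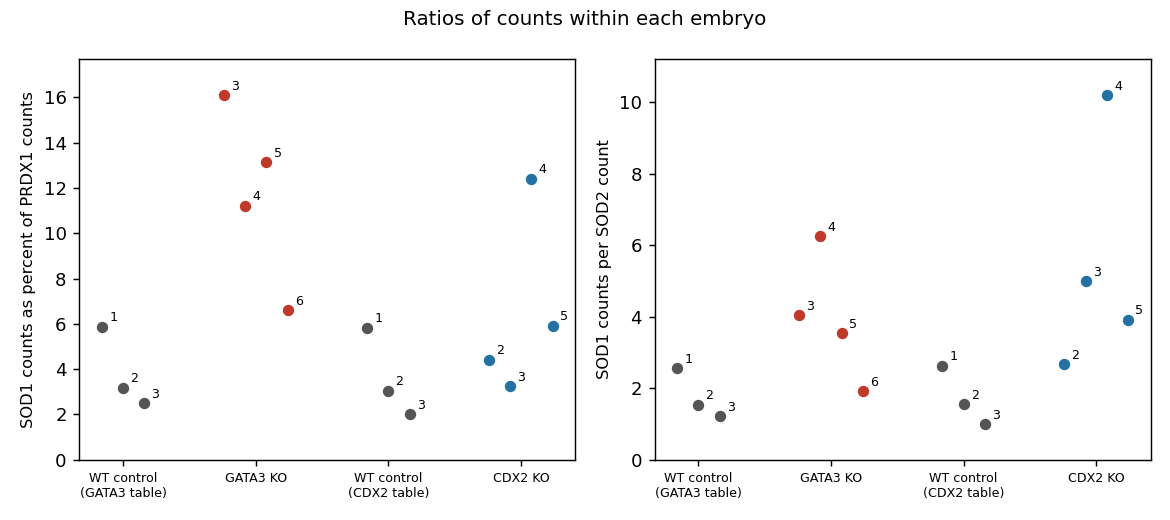
SOD1 counts as a percentage of PRDX1 counts (left) and per SOD2 count (right) in each embryo, for WT control (grey, shown once per table), GATA3 KO (red) and CDX2 KO (blue) embryos. Points are embryos with their numbers. SOD1 reached 16.1% of PRDX1 in GATA3 KO embryo 3 and 12.4% in CDX2 KO embryo 4.

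Among WT control embryos alone, in the table of GATA3 KO, SOD1 varied most of the 9 enzymes, with a coefficient of variation of 60.9% and a highest value 2.72 times the lowest. PRDX5 and PRDX1 varied least, with 13.9% and 15.7%. WT control embryo 1 held the highest value for 6 of the 9, and WT control embryo 2 the lowest for 5. Over the 7 embryos of that table, Pearson's r of each enzyme with SOD1 on the log2 scale was 0.91 for PRDX1, 0.87 for PRDX6 and 0.84 for SOD2, but 0.42 for CAT and -0.49 for PRDX5. In the table of CDX2 KO it was highest for PRDX1, PRDX6 and PRDX2, at 0.78, 0.77 and 0.77, and lowest for CAT, at 0.09. These values describe 7 embryos of 2 groups, and the values of one embryo come from one library with its own depth.

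Outside the set, the 5 transcripts whose pattern over the 7 embryos was most like that of SOD1 in the table of GATA3 KO were OSTC, DNAJB1, RBBP7, OAT and EEF1E1, with r from 0.98 to 0.99. OSTC, a subunit of the oligosaccharyltransferase complex, had 37.9, 25.9 and 24.9 normalized counts in WT control embryos 1 to 3, against 69.5, 58.2, 56.0 and 38.6 for GATA3 KO embryos 3 to 6. Since OSTC was picked for its likeness to SOD1 over these same embryos, its order of embryos follows from that choice. DNAJB1, a co-chaperone of HSP70, had 14.2, 8.65 and 9.33 in WT control and 40.5, 35.3, 31.0 and 19.7 in GATA3 KO embryos. In the table of CDX2 KO the 5 were PTRHD1, HNRNPK, ARF3, MYL12B and CYSTM1, each with an r of 0.98.

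The other genes of the antioxidant system were taken from 8 lists with 79 genes, of which the table of GATA3 KO held 53, with 31 tested. Since these lists were written with earlier results of these data known, their shares and p-values are given as a description. Of the 31, 2 rose past the threshold, against 1.55% of all transcripts higher in KO, and 0 fell, against 0.468%. One was GPX1 of the glutathione list and the other TXNL1 of the peroxiredoxin and thioredoxin list. GPX1, the cytosolic glutathione peroxidase, had 156, 41.1 and 97.9 normalized counts in WT control embryos 1 to 3, against 224, 237, 223 and 259 for GATA3 KO embryos 3 to 6. The WT control embryos were spread widely, and the GATA3 KO embryos were all above them and close together. For GPX1 the log2 fold change was 1.44 (standard error 0.33, Benjamini-Hochberg adjusted p = 0.0309, limma), and 1.58 with the Y-linked covariate (adjusted p = 0.250). TXNL1, a thioredoxin-like protein of the proteasome, had 56.8, 25.9 and 35.7 in WT control and 104, 62.5, 100 and 82.1 in GATA3 KO embryos, so that its fold change was 1.17 on the log2 scale (standard error 0.29) with an adjusted p of 0.0468 by limma. The call of each was lost when any of 5 embryos out of 7 was omitted, the exceptions being WT control embryo 1 and GATA3 KO embryo 6, with an adjusted p of up to 0.148 for GPX1 and 0.202 for TXNL1 (limma). Over these fits the log2 fold change ran from 0.92 to 1.87 for GPX1, with 0.92 without WT control embryo 2, and from 0.91 to 1.46 for TXNL1. TXNL1 also lost it in 6 of 9 other settings, with an adjusted p from 0.0386 to 0.382, and GPX1 in 2 of 10, from 0.0144 to 0.250. Over these settings the log2 fold change was 1.01 to 1.19 for TXNL1 and 1.17 to 1.58 for GPX1.

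Of the 31 genes, 9 lay higher in GATA3 KO embryos without overlap, against 11.9% of all transcripts tested, and 0 lay lower, against 7.05%. Besides GPX1 and TXNL1 these were TXNRD1, GLRX2, GLRX3, SQSTM1, NFE2L2, SEPHS1 and PARK7, none of which passed the threshold. The log2 fold change was above 0 for 22 of the 31, against 57.2% of all transcripts. Among the rest, MSRB1 was at -0.90, HMOX2 at -0.76, PGD at -0.47, TKT at -0.30 and KEAP1 at -0.26, each overlapping WT control. TXNRD1, the cytosolic thioredoxin reductase, was 18.7 to 28.1 normalized counts in WT control, against 37.0 to 56.9 in GATA3 KO embryos (log2 fold change 0.97, adjusted p = 0.0634 from limma). PARK7, a redox-sensitive protein, was 63.7 to 104 in WT control, against 126 to 188 in GATA3 KO embryos (log2 fold change 0.91, adjusted p = 0.0609 from limma). NFE2L2, the transcription factor that drives many antioxidant genes, was 17.1 to 37.9 in WT control, against 41.9 to 57.9 in GATA3 KO embryos (log2 fold change 0.83, adjusted p = 0.119 from limma).

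The lists leave out the enzymes of the set. By list, the median log2 fold change in GATA3 KO embryos was 1.03 over the other 4 tested genes of the peroxiredoxin and thioredoxin system. The peroxiredoxins and TXN of the set, not counted in it, stood at -0.16 to 0.73. The median was 0.75 over the 7 of glutathione synthesis, reduction and peroxidases. It was 0.34 over the 8 of the NFE2L2 pathway, 0.47 over 2 of selenoprotein synthesis, 0.05 over 6 of NADPH supply and -0.01 over 3 of protein repair and metal binding, against 0.11 over all transcripts. In the list of glutathione transferases MGST3 alone was tested, at -0.21, and CCS and SOD3, the 2 genes of the remaining list, were listed in neither table. In the table of CDX2 KO, 34 of the 79 genes were tested and 0 passed the threshold. There 1 gene, TXNRD1, lay higher without overlap, against 2.52% of all transcripts, and 1, MAFG, lay lower, against 3.36%. TXNRD1 was 24.1 to 37.4 normalized counts in WT control, against 38.0 to 67.6 in CDX2 KO embryos (log2 fold change 0.56, adjusted p = 0.900 from limma).

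**Figure D5:**
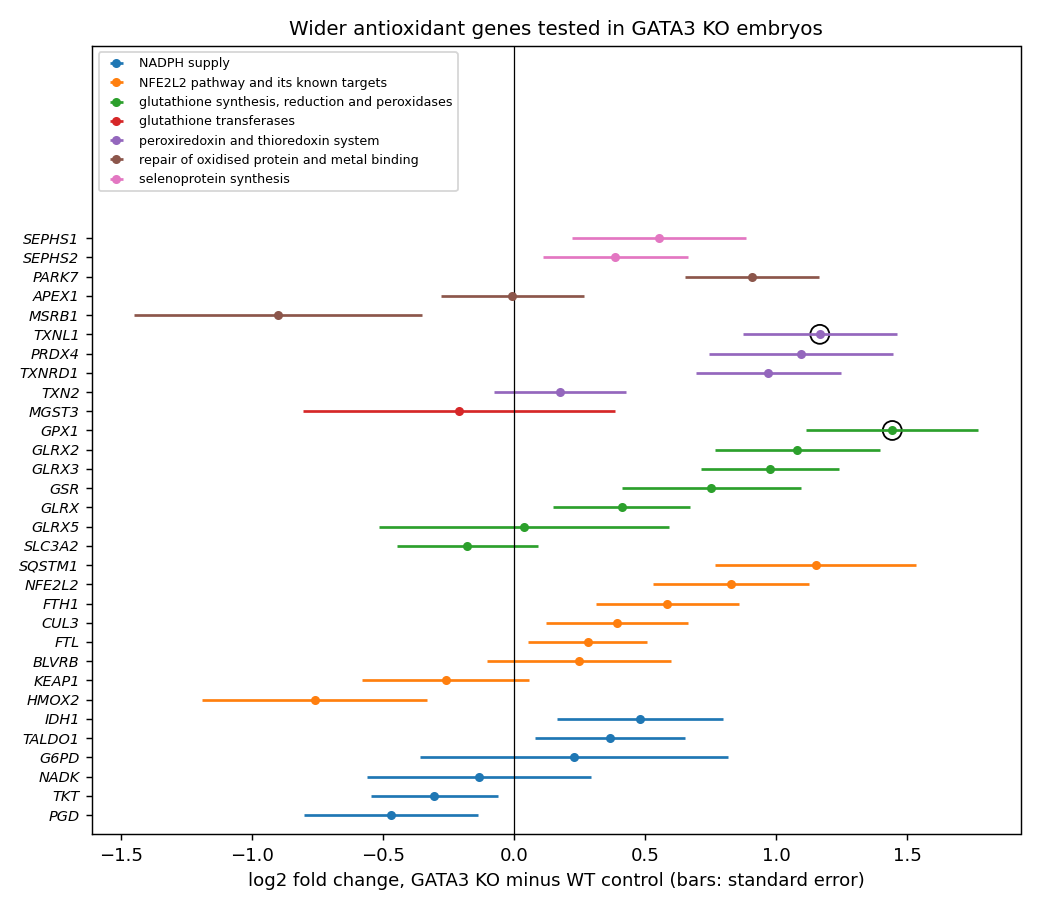
Log2 fold changes (x axis, GATA3 KO minus WT control) of the 31 tested genes of the wider antioxidant lists, coloured by list, with bars of 1 standard error. Black circles mark the 2 genes past the threshold, GPX1 at 1.44 and TXNL1 at 1.17.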

How the data were processed

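Before deposit, the authors used Trimmomatic for trimming, HISAT2 with ARS-UCD1.2 for mapping, featureCounts for counting and DESeq2 for normalization, per the labels. The deposited signal holds counts scaled by one size factor per embryo. In every embryo 100% of the values above 0 were whole multiples of one step (within 0.02 of a whole number), which gave the counts back. How reads shared with gene copies were counted is not given in the sources used here. The deposited fold changes and p-values of the authors' own comparisons were not used. Each WT control column was assigned to the sample of its number, and each KO column to its group only.

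RefSeq gene names of ARS-UCD2.0 matched 98.6% of the transcripts of either table. The enzymes and gene lists were chosen with earlier results of these data known. Log2(normalized count + 1) was fitted with limma 3.58.1 under R 4.3.3 using a mean-dependent prior. Transcripts entered with a mean of 10 or more, and p-values were adjusted by Benjamini-Hochberg over all transcripts tested in a table. The named genes were the 10 enzymes, genes of the lists past the threshold, and the 5 transcripts with the highest r with SOD1. Other genes named were chosen after their values were seen. Alternatives were other pseudocounts, filters, scalings and fold thresholds, no trend, edgeR 4.0.16, DESeq2 1.42.0, a covariate for more than 10 Y-linked counts, and leaving out each embryo. On simulated counts with 200 genes changed by 2 on the log2 scale, limma recovered 93.5% for GATA3 KO (12 false calls among 4271 genes) and 47.5% for CDX2 KO (7 among 5719). The simulation gave all genes of a table the same dispersion, a measure of spread, and had no Y-linked differences between embryos. These shares therefore need not hold for the calls in the real data.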

Additional observations from a re-analysis of the deposited data

Results flagged for a closer look

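PRDX3 was 28.5 normalized counts in CDX2 KO embryo 5, far from the other three embryos of its group, which had 4.66 to 8.58. Of 18 sets of 4 KO values examined, this was the 1 with such a gap. The limit used is one that chance passes in about 1 in 20 independent sets, and these sets share embryos. Embryo 5 is the CDX2 KO embryo with Y-linked counts, and the part of these in its value was not tested.

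SOD2 lay on opposite sides of WT control in the 2 KO groups. Every GATA3 KO embryo lay above the mean of the WT control embryos on the log2 scale and every CDX2 KO embryo below it, with log2 fold changes of 0.92 and -1.20. SOD2 did not pass the threshold in either group, and with the Y-linked covariate its values were 0.90 and -0.11. The difference between the groups was not tested, and both rest on the same WT control embryos.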

How the results depend on the processing

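The number of transcripts past the threshold in GATA3 KO embryos, 86 with the settings reported (66 higher, 20 lower), was 145 with a pseudocount of 5, 172 with no filter, 37 with a mean of at least 100, 16 with no trend, 158 with DESeq2, 1 with the Y-linked covariate, and from 1 to 304 with one embryo left out. Quantile normalization gave 48 higher against 57 lower, and rescaling by median ratios 56 against 53, with edgeR at 57 against 69 and DESeq2 at 72 against 86. The 2 scalings moved the median log2 fold change of all transcripts from 0.11 to 0.003 and 0.007. In CDX2 KO embryos the number, 0, was 1 with a pseudocount of 5, with a mean of at least 100, with rescaling and with edgeR, 2 with no filter and with quantile normalization, 10 with DESeq2, and from 0 to 1 with one embryo left out. The cause of these changes was not tested.

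In GATA3 KO, 7 of the 9 enzymes had a log2 fold change above the median of all transcripts, and 8 after quantile normalization. In CDX2 KO, 2 did, and 6 with the Y-linked covariate, where PRDX1, PRDX3, PRDX6 and TXN turned to 0.33, 0.28, 0.45 and 0.19. With one embryo left out, in CDX2 KO, SOD1 ran from -0.32 to 0.80, CAT from -0.43 to 0.26 and PRDX6 from -0.62 to 0.0392. SOD1 and 4 other enzymes, with means under 100, have no value with a mean of at least 100. No paired analysis was possible because nothing in the labels ties a KO embryo to a WT control embryo, and the KO columns could be assigned to a group but not to a sample. At these depths 3 counts were 1.29 to 6.99 normalized counts.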
